A study of Mus musculus with 14 samples.

Results

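Wild-type (WT) spermatocytes (Spc) were compared with WT spermatogonia (Spg) to describe which genes and which subfamilies of transposable elements (TE) change expression between the mitotic and the meiotic stage of male germ cells in the mouse. The comparison took every entry that the count tables of both stages list, which was 31111 genes and 1080 TE subfamilies of the 38444 genes and 1113 subfamilies in either table. It used 7 of the study's 14 libraries, 3 of Spg and 4 of Spc, all labelled wild type. The other libraries came from Dnmt3C KO/KO mice, which lack a DNA methyltransferase of the male germline, and entered only a test of whether the WT change differed from the KO change. The study asked how young TEs behave in that mutant, and the tables were made to compare KO with WT within each stage. Libraries were made from polyadenylated RNA of sorted cells of littermates on a C57Bl6/J background. Spg came from testes of mice at postnatal day 14 and were collected as living cells without β2-microglobulin and with Ep-CAM on their surface. Spc came from mice older than 20 days and were collected by Hoechst staining, with a gate that the methods give as 2N DNA content. Cells in meiotic prophase hold replicated DNA, more than such a gate names, so that the stage of the Spc rests on their label and on the marker genes below. Stage, age and sorting scheme therefore cannot be told apart in this comparison. Within this bulk RNA, fewer cells of a type and less RNA per cell cannot be told apart either.

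Spermatogonia divide by mitosis, keep a pool of stem cells and respond to retinoic acid, which drives them through differentiation into meiosis. Spermatocytes then pass through a long meiotic prophase, in which homologous chromosomes break, pair and recombine. At the pachytene stage the X and Y chromosomes are silenced within a separate nuclear domain, the sex body, while autosomes start a broad programme of testis-specific transcription. Some autosomal genes of this programme are retrogenes, reverse-transcribed copies of X-linked genes, and many protein products of the programme are used only later, in the haploid spermatid. TEs are held down in these cells by DNA methylation, by histone marks and by piRNAs, small RNAs bound to PIWI proteins.

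The labels were first set against marker genes of the cell types a testis holds. Values below are CPM (counts scaled to library size with TMM factors), and library totals, in M counts, ran from 40.6 to 47.6 in Spg and from 47.6 to 53.3 in Spc. The 19 pachytene markers tested summed to 1352, 3416 and 1052 CPM in Spg replicates 1 to 3 and to 27759, 21636, 14611 and 27223 CPM in Spc replicates 1 to 4. Each Spc library lay above each Spg library, with Spg replicate 2 highest among the Spg. The 20 markers of undifferentiated spermatogonia summed to 616, 408 and 464 CPM in Spg and to 142, 215, 213 and 141 CPM in Spc. The 12 markers of differentiating spermatogonia summed to 1862, 1486 and 1940 CPM in Spg and to 1557, 755, 757 and 1463 CPM in Spc, and the stages overlapped. In each Spc library most of the first sum came from Id4 and most of the second from Dmrtb1, which both rose. The 17 spermatid markers tested summed to 14.8 to 49.3 CPM in Spg and to 1419, 435, 2103 and 1337 CPM in Spc, so that each Spc library held RNA of genes known from the haploid stage. Of other testis cells, 12 Sertoli markers summed to 1344, 742 and 370 CPM in Spg and to 192, 193, 539 and 158 CPM in Spc, so that the groups overlapped and Spc replicate 3 was the highest of its group. Of these 12, 4 were called lower in Spc, among them Sox9 and Amh, and this count was 0 without Spg replicate 1 or Spc replicate 1, 2 or 4, 2 without Spg replicate 2 and 9 without Spc replicate 3. The 8 Leydig markers summed to 14.9 to 48.9 CPM in Spg and to 18.6 to 32.5 CPM in Spc (2 called higher, 4 without Spg replicate 2 and 1 without Spg replicate 1 or Spc replicate 1, 2 or 4), 8 macrophage markers to 0.527 to 3.28 and 5.9 to 8.65 CPM (1 called higher, 0 without Spg replicate 1 or 3, 3 without Spg replicate 2, and 5 with DESeq2 and at an unadjusted p under 0.05), 9 peritubular markers to 32.7 to 48.8 and 42.6 to 54.7 CPM (1 higher and 1 lower, 2 higher without Spg replicate 2 and with DESeq2, and 0 lower without Spg replicate 2 or 3 or Spc replicate 4), 6 endothelial markers to 5.29 to 7.34 and 7.94 to 8.71 CPM (0 called, 1 higher and 1 lower at an unadjusted p under 0.05 and with DESeq2) and 2 erythroid markers to 0.415 to 0.984 and 1.03 to 5.91 CPM (0 called, 1 higher at an unadjusted p under 0.05 and with DESeq2). No tested marker of these somatic lists was at 0 in all libraries of a stage. The part of such cells in the results below was not tested. Spc replicates 1 and 4 were much more alike than other pairs, with a chi-square per degree of freedom of 14.9 over genes and TE subfamilies against 164 to 286 for the other Spc pairs. Spc replicates 1 and 4 of the KO were alike in the same way, at 11.6 against 129 to 258. This measure covers counting error only and cannot tell whether such a pair came from separate mice. The labels give them as separate samples, while the study's figure legends count fewer biological replicates of Spc than there are labelled samples. Here n = 4 follows the labels, and if the pair is 1 replicate, the p-values below are too small. With this WT pair summed as 1 library, 4349 genes and 88 TE subfamilies were called higher and 3370 and 11 lower.

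**Figure D1:**
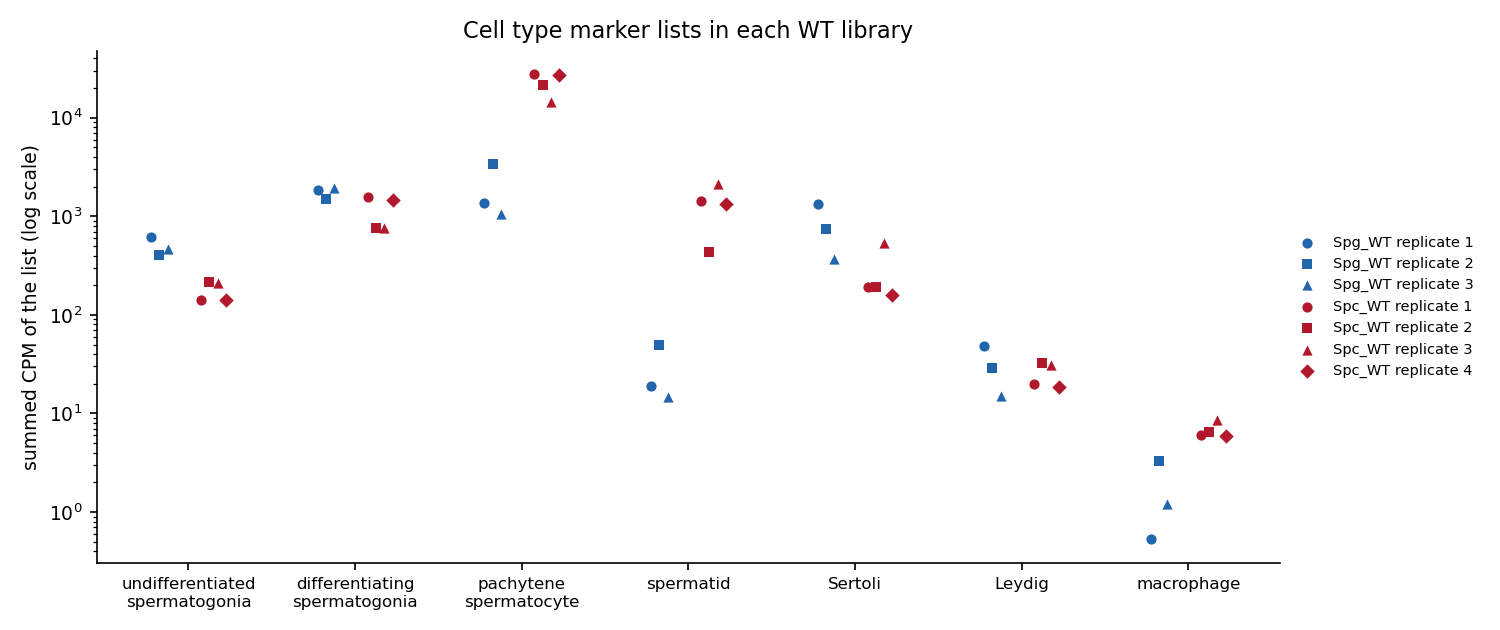
Summed CPM (log scale) of 7 marker lists in each WT library, with Spg in blue, Spc in red and the marker shape giving the replicate. The 4 Spc libraries lie above the 3 Spg libraries for pachytene, spermatid and macrophage markers and below them for undifferentiated spermatogonia. The sums of differentiating spermatogonia, Sertoli and Leydig markers overlap between the stages.

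Genes were called in both directions. Of 21662 genes tested, 5770 (26.6%) were called higher and 5032 (23.2%) lower in Spc at an adjusted p under 0.01 (edgeR quasi-likelihood test, Benjamini-Hochberg adjusted over genes and TE subfamilies), and 10469 of the 10802 called genes changed at least 2-fold. Of 924 TE subfamilies tested, 149 (16.1%) were called higher and 24 (2.6%) lower. The groups of libraries did not overlap in 71.9% of all tested genes and in 40.9% of tested subfamilies. They did not overlap in 10787 of the 10802 called genes and in all 173 called subfamilies, so that no overlap adds little to a call. Scaling matters for these splits, since the TMM factors were 1.265 to 1.317 in Spg and 0.7097 to 1.051 in Spc: with library totals in place of TMM the median change of all genes moved from -0.03 to -0.66 on the log2 scale, 3825 genes were higher and 6260 lower, and no call turned its direction. Of TE subfamilies 52 were then higher and 35 lower. The library labelled Spg replicate 1 decided many calls, since without it 2455 genes were higher and 1782 lower, with no call in the opposite direction. Without Spg replicate 3 the counts were 3680 and 2576, and 3111 to 3311 genes were lower without Spc replicate 1, 2 or 4. The TE subfamilies called were 62 higher and 6 lower without Spg replicate 1, 66 and 8 without Spg replicate 3, 88 and 9 to 10 without Spc replicate 1 or 4, and 12 and 13 were lower without Spc replicate 2 or Spg replicate 2. Without Spc replicate 3, which stood apart from its group in several measures, 5963 genes were higher and 6152 lower, and 49 subfamilies were lower. P-values measure the spread between these 7 samples. Counts of list members below are to be read beside the 26.6% higher and 23.2% lower of all genes.

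Most tested markers of the spermatogonial state were called lower in Spc. Of 20 tested markers of undifferentiated spermatogonia 14 fell and 1 rose, with a median log2 change of -3.55 against -0.03 over all genes, and of 12 markers of differentiating spermatogonia 7 fell and 1 rose (median -3.54). Zbtb16 (PLZF), a transcription factor of the stem cell pool, had 88.6, 67.0 and 86.3 CPM in Spg and 1.1, 2.2, 11.4 and 1.16 CPM in Spc, a log2 change of -4.34 (SE 0.85, edgeR adjusted p 0.00295). Kit, the receptor that marks differentiating spermatogonia, had 290, 214 and 328 CPM in Spg and 4.31, 13.7, 39.4 and 4.03 CPM in Spc (log2 change -4.17, SE 0.80, edgeR adjusted p 0.00275). Both genes were low in all 4 Spc libraries, with the highest remainder in replicate 3. Dmrt1, which keeps spermatogonia in mitosis, went from 311 to 459 CPM in Spg to 6.53 to 56.7 CPM in Spc, and Stra8, which retinoic acid induces before meiosis, from 130 to 208 CPM to 1.93 to 25.4 CPM. The 2 members that rose are transcription regulators as well. Id4 had 18.1, 36.7 and 11.1 CPM in Spg and 112, 181, 126 and 111 CPM in Spc (2.59, SE 0.43, edgeR adjusted p 0.00182), and Dmrtb1, which acts at the switch from mitosis to meiosis, had 104, 169 and 225 CPM in Spg and 1511, 582, 425 and 1421 CPM in Spc (2.57, SE 0.53, edgeR adjusted p 0.0037). In the fit without Spg replicate 1, the counts of fallen markers were 7 and 1, without Spc replicate 2 they were 9 and 2, without Spg replicate 3 the second was 4, and Zbtb16, Kit, Dmrt1 and Stra8 missed the threshold in both of those fits (adjusted p 0.0105 to 0.0164). Id4 and Dmrtb1 did so without Spg replicate 1 (0.0105 and 0.0178), Stra8 also without Spg replicate 3 (0.011) and Dmrtb1 also without Spg replicate 2 (0.0103).

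Retinoic acid signalling, DNA replication and the cohesin of mitotic cells followed the same direction. Of 14 genes that make, bind, break down or sense retinoic acid 8 fell and 1 rose (median -2.28). The receptor gene Rarg had 41.8, 42.7 and 51.2 CPM in Spg and 4.96, 4.97, 9.03 and 4.54 CPM in Spc (log2 change -2.94, SE 0.31, edgeR adjusted p 0.00146). Aldh1a2, an enzyme that makes retinoic acid, was the member that rose, from 80.4, 81.9 and 50.0 CPM to 352, 313, 179 and 346 CPM (2.07, SE 0.32, edgeR adjusted p 0.00153). For neither gene did the libraries of the stages overlap.

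Of 27 genes of replication and of entry into the cell cycle 17 fell and 1 rose (median -1.90). Mcm2, a subunit of the replicative helicase, had 316, 278 and 404 CPM in Spg and 4.26, 22, 42.4 and 3.83 CPM in Spc (-4.20, SE 0.84, edgeR adjusted p 0.00315), whereas Mcm7, a subunit of the same helicase, had 249, 277 and 303 CPM and 310, 303, 229 and 307 CPM (0.06, SE 0.20, edgeR adjusted p 0.817) and was called lower with library totals (-0.61, edgeR adjusted p 0.00896). Ccnd1, cyclin D1, went from 146 to 254 CPM to 2.04 to 23.9 CPM, and Mki67, a proliferation marker, from 404 to 715 CPM to 79.2 to 196 CPM. Of 7 genes of mitotic cohesin and its loading and release 5 fell and 1 rose (median -2.73): Smc3, a core subunit, had 281, 190 and 290 CPM in Spg and 24, 24.2, 66.7 and 28.4 CPM in Spc, while Nipbl, which loads cohesin on DNA, had 201, 184 and 132 CPM and 915, 496, 405 and 1203 CPM (2.13, SE 0.42, edgeR adjusted p 0.00306). With Spg replicate 1 left out, 3 of the retinoic acid genes, 12 of the replication genes and 4 of the cohesin genes were lower, and 5 of the retinoic acid genes were lower without Spc replicate 1, 2 or 4. Mcm2 and Ccnd1 then had an adjusted p of 0.011 and 0.0109, and without Spc replicate 2 of 0.0111 and 0.0116. Ccnd1 reached 0.0104 without Spg replicate 3, and Nipbl reached 0.0126 without Spg replicate 1 and 0.0135 without Spg replicate 3.

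**Figure D2:**
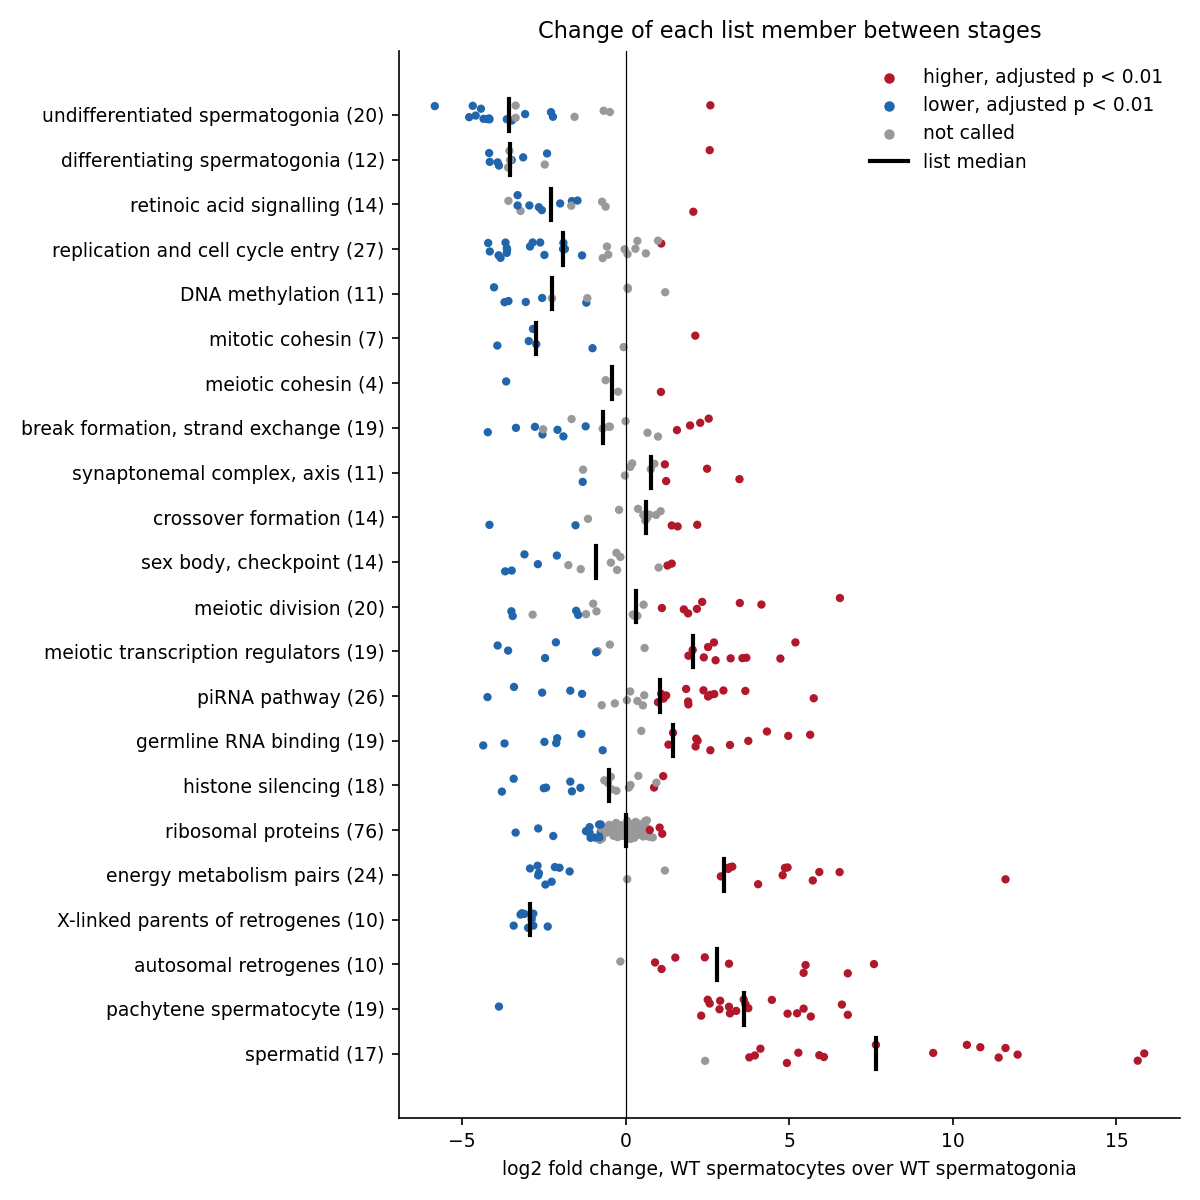
Log2 fold change of each tested member of 22 gene lists between WT Spc and WT Spg, with the number of members in brackets, the median as a black bar and colours for the calls at an adjusted p under 0.01. The medians of the spermatogonia, replication and X-linked parent lists lie left of 0 and those of the pachytene and spermatid lists right of it, with single members such as Id4, Dmrtb1 and Nxf2 on the other side of 0.

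Single genes of meiotic chromosomes were called in both directions. Of 11 genes of the synaptonemal complex and the chromosome axis 4 rose and 1 fell (median 0.77), beside 26.6% and 23.2% of all genes. With library totals 2 were higher (median 0.17) and with DESeq2 6. Sycp1, which forms the transverse filaments of the complex, had 463, 418 and 416 CPM in Spg and 384, 420, 731 and 372 CPM in Spc (log2 change 0.14, SE 0.28, edgeR adjusted p 0.669), and the value was -0.15 without Spc replicate 3 and -0.43 with library totals. Sycp3, an axis protein, had 190 to 285 CPM in Spg and 356 to 580 CPM in Spc and missed the threshold (0.77, SE 0.26, edgeR adjusted p 0.027) although the libraries did not overlap, and DESeq2 called it (adjusted p 0.00681). With library totals Sycp3 had 0.17 (edgeR adjusted p 0.662), and without Spg replicate 3 its edgeR adjusted p was 0.103. Syce1, of the central element, had 75.6, 126 and 85.5 CPM in Spg and 677, 483, 318 and 675 CPM in Spc (2.49, SE 0.35, edgeR adjusted p 0.00146). The stages overlapped for Sycp1, and Syce1 was higher in each Spc library. Of the 4 meiotic cohesin subunits Stag3 rose (1.08, SE 0.27, edgeR adjusted p 0.00778) and Rad21l fell from 29.8, 18.9 and 19.5 CPM to 0.627, 1.32, 4.71 and 0.534 CPM (-3.65, SE 0.76, edgeR adjusted p 0.00382), while Rec8 had 30.2 to 40.5 CPM in Spg and 7.82 to 32.9 CPM in Spc. Calls of 1 of 4 in each direction are near the shares of all genes. Without Spg replicate 1, 2 synaptonemal complex genes were higher and 0 lower, as without Spg replicate 3, and neither Stag3 (adjusted p 0.0395) nor Rad21l (0.0148) was called. Without Spc replicate 2, Rad21l had an adjusted p of 0.0141, and among the fits without 1 library Stag3 stayed under the threshold only without Spc replicate 3. With library totals Stag3 had 0.39 (edgeR adjusted p 0.0766).

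Recombination genes are given next by their counts. Of 19 genes of break formation and strand exchange 4 rose and 7 fell (median -0.70), beside 26.6% and 23.2% of all genes. Prdm9, the histone methyltransferase that sets break sites, had 46.7, 51.9 and 56.5 CPM in Spg and 2.04, 5.62, 11.4 and 1.22 CPM in Spc (log2 change -3.35, SE 0.70, edgeR adjusted p 0.00371). Spo11, the enzyme that makes the breaks, had 26.8, 32.2 and 11.3 CPM in Spg and 128, 109, 99.1 and 120 CPM in Spc (2.28, SE 0.36, edgeR adjusted p 0.00164). Prdm9 was thus lower and Spo11 higher in every Spc library. Dmc1, the meiotic recombinase, had 95.8, 69.4 and 70.3 CPM in Spg and 5.41, 9.59, 35.4 and 4.36 CPM in Spc and missed the threshold (-2.52, SE 0.70, edgeR adjusted p 0.0123), although it passed without Spc replicate 3 (-3.61, edgeR adjusted p 4.6e-04) and with DESeq2 (adjusted p 7.3e-04), while Psmc3ip (HOP2), a cofactor of strand exchange, had 29.4, 51.8 and 29.1 CPM and 237, 242, 154 and 219 CPM (2.54, SE 0.30, edgeR adjusted p 0.00146). Of 14 genes of crossover formation 3 rose and 2 fell (median 0.63), no larger shares than the 26.6% and 23.2% of all genes. Mlh3, of the crossover resolving complex, rose from 47.5, 60.8 and 49.5 CPM to 136, 156, 110 and 157 CPM, and X-linked Tex11 fell from 209, 178 and 318 CPM to 2.85, 11.1, 35.4 and 3.26 CPM (-4.16, SE 0.87, edgeR adjusted p 0.00384). Of 14 genes of the sex body and the prophase checkpoint 2 rose and 5 fell (median -0.91), beside the same 26.6% and 23.2% of all genes. The kinase genes went apart, with Atm at 202, 169 and 276 CPM in Spg and 7.13, 18, 33.6 and 8.16 CPM in Spc (-3.68, SE 0.55, edgeR adjusted p 0.0015) and Atr at 554, 478 and 366 CPM and 1020, 1218, 886 and 1411 CPM (1.28, SE 0.25, edgeR adjusted p 0.00311). Mdc1, which spreads the silencing signal over the sex body, rose from 263 to 515 CPM to 807 to 1232 CPM. With library totals no gene of the crossover and sex body lists was called higher. With Spg replicate 1 left out, 2 genes of break formation were lower, none of the crossover list was lower and none of the sex body list higher, and Prdm9, Tex11, Atr and Mdc1 had an adjusted p of 0.0123, 0.0121, 0.0109 and 0.0233. Without Spg replicate 3, 4 genes of break formation were lower, 1 of the crossover list higher and 1 lower, and none of the sex body list higher, and these values were 0.011, 0.0113, 0.0154 and 0.0196, and without Spc replicate 2, where 4 genes of break formation and 1 of the crossover list were lower and 1 of the sex body list was higher, Prdm9, Tex11 and Mdc1 had 0.0126, 0.015 and 0.0118.

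More regulators of transcription in meiosis were called higher than lower. Of 19 such genes 11 rose and 5 fell (median 2.05), and those that fell included Stra8 and the X-linked Taf7l, which went from 360, 284 and 403 CPM to 8.41, 29.0, 69.4 and 8.6 CPM (log2 change -3.59, SE 0.74, edgeR adjusted p 0.00349). Mybl1 (A-MYB), a driver of pachytene genes and of piRNA precursors, had 47.2, 56.2 and 24.8 CPM in Spg and 189, 164, 137 and 220 CPM in Spc (2.05, SE 0.32, edgeR adjusted p 0.00163). Tcfl5, a pachytene factor, had 85.9, 141 and 89.8 CPM and 850, 650, 422 and 823 CPM (2.7, SE 0.34, edgeR adjusted p 0.00146). All 4 Spc libraries lay above all Spg libraries for both genes. Rfx2, which acts on genes of cilia and the spermatid, rose from 29.1, 103 and 33.8 CPM to 754, 635, 379 and 849 CPM (3.57, SE 0.55, edgeR adjusted p 0.00155), and Crem, the activator of spermatid genes, from 14.9, 32.3 and 9.11 CPM to 217, 131, 131 and 216 CPM (3.21, SE 0.48, edgeR adjusted p 0.00149). In the fit without Spg replicate 1, 8 regulators were higher and 1 lower, and 1 was lower without Spg replicate 3 and 3 without Spc replicate 1, 2 or 4. Taf7l missed the threshold without Spg replicate 1, Spg replicate 3 or Spc replicate 2 (adjusted p 0.0123, 0.0101 and 0.013).

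Promoter sequences are shown for 4 list genes, picked among those that rose, that hold a motif of 1 of these factors upstream of the start, so that the letters can be read beside the values. List genes that fell hold the same motifs, as Mcm2 does that of MYB. The motifs searched on both strands were CAACTG for MYB proteins, GTTGCCA for RFX proteins (part of an X-box) and TGACGTCA for CREB and CREM, in the 250 bases before and 50 after the start of each RefSeq gene on GRCm38.p6. Capitals mark the motif, which for Piwil1, Tcfl5 and Mns1 reads as its reverse complement. The first motif base lies 73, 140, 73 and 12 bases before the start.
Piwil1 (chr5:128736143-128736208, plus strand): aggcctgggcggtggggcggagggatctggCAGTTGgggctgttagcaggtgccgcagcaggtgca
Tcfl5 (chr2:180642796-180642861, minus strand): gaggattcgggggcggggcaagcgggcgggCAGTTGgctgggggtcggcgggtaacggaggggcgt
Mns1 (chr9:72438426-72438492, plus strand): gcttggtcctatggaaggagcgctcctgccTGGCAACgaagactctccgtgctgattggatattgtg
Ldha (chr7:46845762-46845803, plus strand): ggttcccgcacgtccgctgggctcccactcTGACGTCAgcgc
Of 27025 promoter windows of this length 13.6% held the MYB motif, 4.46% the RFX motif and 1.88% the CREB motif. A comparison of these shares between genes that rose and fell was void, since a window was found for 79.8% of 14769 tested protein-coding genes on the autosomes searched and for 79.9% of those that fell, under the 80% needed. A match is a description of the letters and shows no binding.

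Among the gene lists, those of spermatid and pachytene genes had the largest median rises. Of 19 tested pachytene markers 18 rose (median 3.61). Hspa2, a chaperone of the synaptonemal complex, had 193, 539 and 115 CPM in Spg and 3328, 3009, 2120 and 3273 CPM in Spc (log2 change 3.38, SE 0.55, edgeR adjusted p 0.00175). Ldhc, the testis form of lactate dehydrogenase, had 65.1, 351 and 16.5 CPM and 5787, 4114, 2439 and 5475 CPM (4.95, SE 1.04, edgeR adjusted p 0.00382). Mns1, a protein of the sperm tail, had 64.1, 93.3 and 59.6 CPM and 674, 429, 346 and 692 CPM (2.89, SE 0.34, edgeR adjusted p 0.00146). The lowest Spc library stood well above the highest Spg library for these genes, and Spg replicate 2 was the highest of its group. Nxf2, an X-linked RNA export factor, was the member that fell, from 175, 137 and 204 CPM to 4.34, 9.52, 29.8 and 3.2 CPM (-3.87, SE 0.74, edgeR adjusted p 0.00275). Without Spg replicate 1, 8 of the 19 were higher and none lower, and Hspa2, Ldhc and Nxf2 had an adjusted p of 0.0102, 0.0179 and 0.0105. Without Spc replicate 2, Ldhc and Nxf2 had 0.0102 and 0.0109.

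Of 17 tested spermatid genes 16 rose (median 7.65), and Prm1, Spaca4 and Catsper1 of the same list were listed for Spc alone. Prm2 and Tnp2, a protamine and a transition protein that package the spermatid nucleus, had 0 counts in each Spg library. In Spc, Prm2 had 113, 11.3, 386 and 95.7 CPM and Tnp2 had 107, 13.9, 311 and 94.3 CPM. Their Spc means of 151 and 131 CPM, to which replicate 3 gave most, are at least 2939-fold and 2555-fold higher than 3 counts per Spg library. Replicate 2 was the lowest and replicate 3 the highest for both. Tnp1, the other transition protein, had 0.255, 0.264 and 0.434 CPM in Spg and 56.2, 6.07, 146 and 48.8 CPM in Spc (7.65, SE 1.13, edgeR adjusted p 0.00148). Izumo1, a protein of sperm and egg fusion, had 1.56 to 2.3 CPM in Spg and 2.3 to 18.9 CPM in Spc and was not called (2.43, SE 0.65, edgeR adjusted p 0.011), although it passed without Spc replicate 2 (adjusted p 0.00355) and with DESeq2 (adjusted p 2.4e-04). Of 20 genes of the meiotic divisions 8 rose and 4 fell (median 0.32), beside 26.6% and 23.2% of all genes. With library totals 7 rose and 6 fell (median -0.38). The cyclins A went apart: Ccna1, the germline form needed to leave prophase, had 1.34, 3.2 and 0.634 CPM in Spg and 284, 36.6, 70.0 and 258 CPM in Spc (6.55, SE 1.02, edgeR adjusted p 0.00159), while Ccna2, the form of mitotic cells, had 116, 111 and 170 CPM and 2.93, 14.6, 26.2 and 4.6 CPM (-3.45, SE 0.70, edgeR adjusted p 0.00344). In the fit without Spg replicate 1, 12 spermatid genes were higher and 1 gene of the divisions was lower, as without Spg replicate 3. Ccna2 missed the threshold there (adjusted p 0.0114), without Spg replicate 3 (0.0109) and without Spc replicate 2 (0.0114).

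Over all protein-coding genes, list members included, the 10 largest rises among those called with at least 100 CPM in Spc and no overlap were Prm2, Tnp2, Prss39, Spata20, Pou5f2, Ccdc178, Ccdc7b, Ggn, Spata21 and Toporsl, with log2 changes of 9.08 to 7.34 from Prss39 on and of at least 11.52 for Prm2 and 11.32 for Tnp2, against 3 counts per Spg library. Ggn, a germ cell protein on chromosome 7 (29170210 to 29173976), had 0.0958, 7.4 and 0.117 CPM in Spg and 833, 156, 202 and 832 CPM in Spc. Pou5f2, a POU-domain factor on chromosome 13 (78024902 to 78026295), had 0.016, 1.3 and 0.0167 CPM and 229, 35.3, 27.4 and 211 CPM. Spc replicates 1 and 4 were the highest and Spg replicate 2 the highest Spg library in Prss39, Pou5f2, Ccdc178, Ccdc7b, Ggn and Toporsl. The 10 largest falls under the same conditions were Gm15262, Mcm2, Kit, Usp26, Tex11, Ccnd1, Lcor, Trim71, Tex13b and Ptk7, with log2 changes of -4.23 to -4.06. Of these, Gm15262, Usp26, Tex11 and Tex13b lie on the X chromosome. Trim71, a stem cell protein that represses mRNAs, had 157, 89.4 and 120 CPM in Spg and 1.1, 5.19, 20.8 and 1.28 CPM in Spc, and Usp26, a germline deubiquitinase, had 158, 120 and 224 CPM and 3.5, 5.43, 24.9 and 3.41 CPM. Prm2, Tnp2, Spata20, Spata21, Toporsl and Usp26 kept their calls without any 1 library. The others missed the threshold in at least 1 such fit, all of them without Spg replicate 1 (adjusted p 0.0104 to 0.0214), and Gm15262, Mcm2, Kit, Tex11, Ccnd1, Lcor, Trim71, Tex13b, Ptk7 and Ggn also without Spc replicate 2 (0.011 to 0.0247). Pou5f2, Ccdc178, Ggn, Tex11, Ccnd1, Trim71, Tex13b and Ptk7 did so without Spg replicate 3 (0.0104 to 0.0152), and Ccdc178, Ggn and Trim71 without Spc replicate 1 or 4 (0.0108 to 0.0129). Ccdc178 also missed it with library totals (0.0107).

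Genes listed in 1 table alone had little or no RNA in the other stage, since the smallest maximum count in either table was 2. The Spc table alone listed 5777 genes, of which 1022 had a mean of at least 10 counts in WT Spc, 214 of at least 100 and 20 of at least 1000. The Spg table alone listed 1556 genes, none with a mean of 10 counts in WT Spg. Among the highest of the Spc table were Prm1, Ms4a14, Prr30 and 1700013G24Rik. Prm1, the other protamine, had 3155, 346, 12381 and 2318 counts in Spc. Its mean of 99.9 CPM, to which replicate 3 gave most, was at least 1941-fold higher than 3 counts per Spg library. The highest of the Spg table were Timd2, Gm22940, Gm35040, Gm42444 and Khdc1a, with means of 6 to 7.67 counts. The asymmetry was one of level as well as number, and for Prm1 the order of the Spc libraries was again replicate 3 highest and replicate 2 lowest.

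The X and Y chromosomes had lower shares of gene counts in Spc. The X chromosome took 2.84%, 2.12% and 2.72% of gene counts in Spg and 0.148%, 0.174%, 0.625% and 0.134% in Spc, means of 2.56% ± 0.386 (SD, n = 3) and 0.27% ± 0.237 (n = 4). The Y chromosome took 0.0735%, 0.0604% and 0.0872% in Spg and 0.00868%, 0.00514%, 0.0225% and 0.00752% in Spc. The libraries of the stages did not overlap in either share, and Spc replicate 3 was the highest of its group in both. The two-sided exact permutation p was 0.0571 for each, which is the smallest that 3 against 4 libraries allow, so that 0.05 could not be reached.

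Gene by gene, 473 of 857 tested X-linked genes (55.2%) fell and 48 rose, with a median log2 change of -2.65, and 11 of 21 Y-linked genes fell and 0 rose (median -3.24). On the autosomes 4543 of 20713 genes (21.9%) fell and 5705 rose, with a median of 0.05. With library totals 480 X-linked genes fell and 38 rose. The count of X-linked genes that fell was 137 without Spg replicate 1, 245 without Spg replicate 3, 244 without Spc replicate 2 and 307 without Spc replicate 1, against 1608, 2294, 3027 and 2793 on the autosomes. Without Spc replicate 3 it was 589. X-linked rises were 24 without Spg replicate 1 and 29 to 31 without Spc replicate 1, 3 or 4. Y-linked falls were 3 without Spg replicate 1, 6 without Spg replicate 3, 7 without Spc replicate 1, 2 or 4 and 18 without Spc replicate 3.

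**Figure D3:**
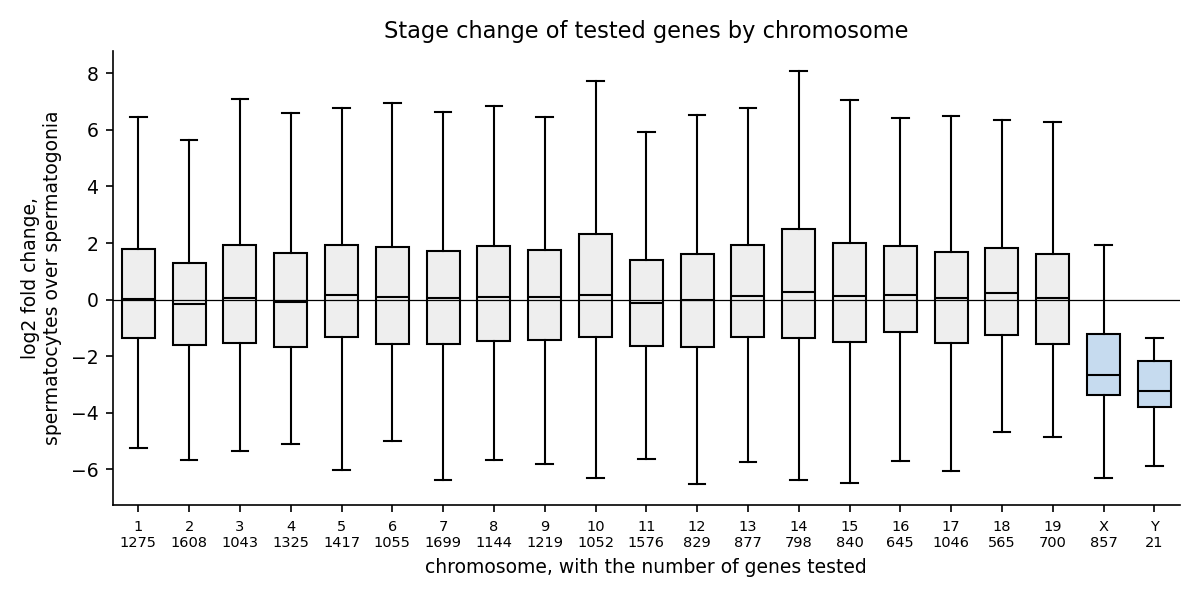
Log2 fold change of tested genes between WT Spc and WT Spg for each chromosome, with the number of genes under the name, the median as a line, the box from the 25th to the 75th percentile and whiskers to the last value within 1.5 times the box length. The autosomal medians lie near 0, and those of X and Y lie at -2.65 and -3.24.

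The steepest falls on the X were Dock11, Shroom4 and Radx. Dock11 (chromosome X, 35888832 to 36076562), an activator of a small GTPase, had 65.1, 46.8 and 78.7 CPM in Spg and 0.261, 2.06, 7.76 and 0.771 CPM in Spc (log2 change -4.54, SE 0.98, edgeR adjusted p 0.00434), and Radx (139480367 to 139554582), which acts at replication forks, had 51.1, 36.8 and 67.2 CPM and 0.549, 2.49, 5.89 and 0.534 CPM (-4.44, SE 0.85, edgeR adjusted p 0.00271). Only 2 of the 48 X-linked genes that rose reached 10 CPM in Spc. Akap4, a scaffold of the sperm tail, had 0.0319, 0 and 0.0667 CPM in Spg and 92.8, 14.4, 197 and 90.7 CPM in Spc (11.40, SE 1.27, edgeR adjusted p 0.00146). Tsga8, a spermatid gene, had 1.05, 0.904 and 0.15 CPM and 58.3, 14.9, 51.3 and 50.4 CPM (5.96, SE 0.82, edgeR adjusted p 0.00146). Akap4 followed the order of the spermatid genes, with replicate 3 highest and replicate 2 lowest. The 48 genes had a median of 1.97 CPM in Spc, and 26 of them had no more than 3 counts in any Spg library. Dock11, Shroom4 and Radx missed the threshold without Spg replicate 1 (adjusted p 0.014, 0.0103 and 0.0104) and without Spc replicate 2 (0.0168, 0.0101 and 0.0102), and Dock11 also without Spg replicate 3 (0.0122) or Spc replicate 4 (0.0102).

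In the fit over all 14 libraries the X-linked genes had a median log2 change between the stages of 0.12 in KO and -2.47 in WT. The change was more negative in WT for 366 X-linked genes and more positive for 24, at an adjusted p under 0.01 of the difference, and 11 of 21 Y-linked genes were more negative in WT. Over all 24340 genes in that test 11.1% were more negative and 14.6% more positive. With library totals this balance turned, with 4252 genes more negative and 1733 more positive. The median difference of WT minus KO was -2.72 on the X and 0.09 on the autosomes. Markers of germ cell stages and of somatic cells moved with this difference. In the same fit the median log2 change was 0.97 in KO and 7.82 in WT for the 17 spermatid markers and 1.20 and 3.78 for the 19 pachytene markers, and 11 of each list were more positive in WT at the threshold. For the somatic lists the median log2 change between the stages was 6.74 in KO and 2.5 in WT for the 8 macrophage markers, 5.35 and -0.23 for the 9 peritubular, 6.29 and 3.16 for the 8 Leydig, 1.90 and 0.17 for the 6 endothelial, 1.92 and 1.74 for the 2 erythroid and -0.35 and -1.71 for the 12 Sertoli markers. The change was more negative in WT for 4 macrophage, 5 peritubular and 2 endothelial markers at the threshold, and for none of the others. The study reports that KO germ cells arrest at pachytene, and that its sorted WT Spc hold cells of a later stage as well. The part of the stages or of such cells in the difference was not tested.

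Autosomal retrogenes and their X-linked parents moved in opposite directions. All 10 parents fell (median -2.93) and 9 of 10 autosomal copies rose (median 2.79). Pgk1, the parent for phosphoglycerate kinase of glycolysis, had 32.0, 28.3 and 34.4 CPM in Spg and 2.72, 4.83, 7.46 and 2.22 CPM in Spc (log2 change -2.87, SE 0.44, edgeR adjusted p 0.00154), while its copy Pgk2 had 0.463, 5.67 and 0.184 CPM and 351, 72.0, 163 and 339 CPM (6.79, SE 1.36, edgeR adjusted p 0.00327). Rpl10, a protein of the large ribosomal subunit, had 104, 95.5 and 131 CPM in Spg and 5.51, 16.1, 25.2 and 4.92 CPM in Spc, and its copy Rpl10l had 53.4, 90.8 and 39.6 CPM and 376, 324, 264 and 347 CPM (2.42, SE 0.32, edgeR adjusted p 0.00146). Neither pair had overlapping stages in either gene. Parents and copies are similar in sequence, so reads that match both make such values uncertain. Utp14b, the copy of a gene for ribosomal RNA processing, was the exception, with 39.8, 39.4 and 45.1 CPM and 45.2, 20.2, 31.5 and 51.4 CPM (-0.16, SE 0.32, edgeR adjusted p 0.677). With Spg replicate 1 left out, 7 parents were lower and 3 copies higher, with Pgk2 at an adjusted p of 0.0134, and without Spg replicate 3, 6 copies were higher. With library totals 6 copies were higher and all 10 parents lower. In KO, in the fit over all 14 libraries, the medians were 0.18 for the parents and 1.02 for the copies, and the change of all 10 parents was more negative in WT.

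**Figure D4:**
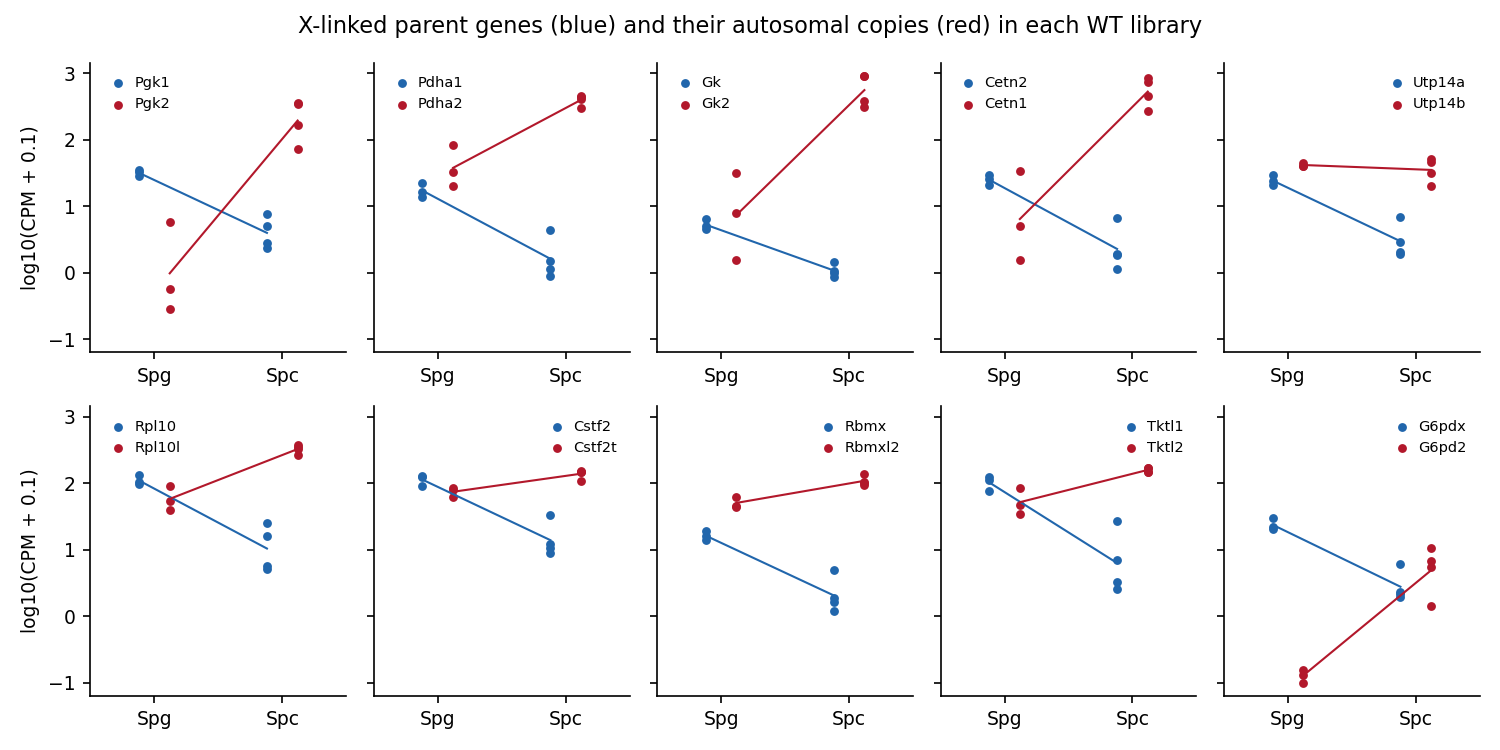
Level, as log10(CPM + 0.1), of 10 X-linked parents (blue) and their autosomal copies (red) in each WT library of Spg and Spc, with a line between the means. CPM is not corrected for transcript length, so that changes and not levels can be set against each other, and 9 red lines rise while all blue lines fall.

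Metabolic genes were called in both directions as well. Of 24 genes in pairs of somatic and testis forms of energy metabolism 13 rose and 9 fell. Gapdh, a glycolytic enzyme on chromosome 6, had 387, 317 and 398 CPM in Spg and 33.9, 74.0, 93.7 and 28.7 CPM in Spc (log2 change -2.67, SE 0.42, edgeR adjusted p 0.00164), and its sperm form Gapdhs had 0.016, 0.0753 and 0 CPM and 91.6, 17.6, 199 and 84.6 CPM (11.61, SE 1.26, edgeR adjusted p 0.00146). Of the glucose transporters, Slc2a1 (GLUT1) had 17.7, 15.1 and 12.9 CPM and 1.65, 2.87, 6.73 and 1.39 CPM (-2.26, SE 0.56, edgeR adjusted p 0.00742), and Slc2a3 (GLUT3) had 92.5, 455 and 27.8 CPM and 6865, 5220, 2476 and 6898 CPM (4.80, SE 0.99, edgeR adjusted p 0.00358). In each of these pairs 1 gene was lower and the other higher in every Spc library. Ldha, the muscle form of lactate dehydrogenase, rose with Ldhc, from 29.7, 138 and 9.13 CPM to 2149, 1822, 839 and 2093 CPM, while Ldhb, the heart form, had 149, 72.1 and 37.1 CPM and 18.1, 16.3, 35.9 and 14.5 CPM (-2.02, SE 0.50, edgeR adjusted p 0.00744). Without Spg replicate 1, 8 genes were higher and 3 lower, and Slc2a3, Ldha, Slc2a1 and Ldhb had an adjusted p of 0.0172, 0.0149, 0.0264 and 0.0357. Slc2a1 kept its call only without Spc replicate 3, and Ldhb only without Spc replicate 3 or Spg replicate 3. The 13 protein genes of the mitochondrial genome had a median of -0.76 and 0 calls with edgeR, although 11 were lower at an unadjusted p under 0.05, 3 with DESeq2, 7 with library totals (median -1.34) and 8 without Spc replicate 3. The mitochondrial share of gene counts was 3.84%, 2.73% and 3.56% in Spg and 1.05%, 0.976%, 2.3% and 0.872% in Spc (two-sided exact permutation p 0.0571, the smallest possible).

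The piRNA pathway held more called rises than falls. Of 26 piRNA genes 14 rose and 5 fell (median 1.04). Piwil1 (MIWI), the PIWI protein of pachytene and later cells, had 94.3, 408 and 38.7 CPM in Spg and 2313, 2928, 1624 and 2269 CPM in Spc (log2 change 3.66, SE 0.78, edgeR adjusted p 0.00411), and Piwil4 (MIWI2), which acts in the nucleus of foetal germ cells, had 8.78, 6.42 and 7.94 CPM and 0.0784, 0.454, 1.07 and 0 CPM (-4.22, SE 1.03, edgeR adjusted p 0.00713). Piwil2 (MILI), the PIWI protein of both stages, had 464, 530 and 383 CPM and 480, 891, 772 and 507 CPM (0.53, SE 0.28, edgeR adjusted p 0.125, and -0.07 with library totals). The PIWI genes thus moved in different directions. Tdrd6, a scaffold of the chromatoid body, rose from 12.1, 81.9 and 2.25 CPM to 2428, 1138, 663 and 2696 CPM, and Tex15, which directs DNA methylation of TEs in foetal cells, fell from 574, 449 and 741 CPM to 33.2, 34.6, 114 and 39.8 CPM (-3.41, SE 0.49, edgeR adjusted p 0.00147). With library totals 8 piRNA genes were higher and 4 lower. With Spg replicate 1 left out, 6 were higher and 1 lower (1 to 2 lower also without any other library but Spc replicate 3), and Piwil1, Tdrd6 and Piwil4 had an adjusted p of 0.0193, 0.0215 and 0.0213. Without Spc replicate 2 these were 0.0118, 0.0112 and 0.0222. Tdrd6 was also over the threshold without Spc replicate 1 (0.0102), and Piwil4 without Spc replicate 1 (0.017), Spg replicate 2 (0.0115) or Spg replicate 3 (0.017).

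Of 19 germline RNA-binding genes 11 rose and 7 fell (median 1.45). Ybx3, a Y-box protein that stores mRNA, had 82.2, 285 and 62.5 CPM in Spg and 3615, 2708, 1687 and 3469 CPM in Spc (log2 change 4.32, SE 0.64, edgeR adjusted p 0.00148), and Dazl, a translation factor of early germ cells, had 871, 812 and 1034 CPM and 98.9, 170, 465 and 99.6 CPM (-2.12, SE 0.54, edgeR adjusted p 0.00883). Dazl kept its call only without Spc replicate 3 among the fits without 1 library (adjusted p 0.0144 to 0.0294 in the others), and with library totals it had 0.0103. Of the 7 falls 3 to 4 were called without any 1 library but Spc replicate 3. Of 76 ribosomal protein genes 3 rose and 12 fell, smaller shares than the 26.6% and 23.2% of all genes, with a median of 0.01. With library totals 0 rose and 33 fell. In the fit without Spg replicate 1, both counts were 0, in those without Spc replicate 1, Spc replicate 4, Spg replicate 2 or Spg replicate 3, 0 to 1 rose and 2 to 6 fell, without Spc replicate 2, 1 rose, and without Spc replicate 3, 15 rose and 10 fell.

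Of 11 genes that write, read or erase DNA methylation 6 fell and 0 rose (median -2.25). Dnmt3a, a de novo methyltransferase, had 150, 129 and 177 CPM in Spg and 4.02, 10.1, 27.4 and 5.13 CPM in Spc (log2 change -3.70, SE 0.65, edgeR adjusted p 0.00205). Dnmt1, the maintenance enzyme, had 461, 463 and 655 CPM and 218, 284, 184 and 232 CPM (-1.20, SE 0.23, edgeR adjusted p 0.00278), and its partner Uhrf1 had 246, 273 and 319 CPM and 306, 345, 215 and 299 CPM (0.06, SE 0.22, edgeR adjusted p 0.822, and -0.60 with library totals). Dnmt3a was low in each Spc library, whereas the stages overlapped for Uhrf1. Of 18 genes of histone-based silencing 2 rose and 7 fell (median -0.50), with Ehmt1, a histone H3 lysine 9 methyltransferase, at 118, 107 and 157 CPM in Spg and 2.82, 9.73, 21.2 and 3.26 CPM in Spc, and Trim28, a corepressor that recruits such enzymes, at 417, 496 and 417 CPM and 1123, 1032, 691 and 1095 CPM (1.15, SE 0.24, edgeR adjusted p 0.00363). With library totals 0 of the 18 rose. Without Spg replicate 1, 2 methylation genes and 5 silencing genes were lower and none higher, and Dnmt1 and Trim28 had an adjusted p of 0.0103 and 0.02. Without Spg replicate 3, 3 methylation genes were lower, no silencing gene was higher, and these were 0.0125 and 0.018, and Trim28 had 0.01 without Spc replicate 1 and 0.0103 without Spc replicate 2. Of the silencing genes 1 was higher without Spc replicate 1, 2 or 4. Of 11 histone variant genes 3 rose and 3 fell, shares near those of all genes (26.6% and 23.2%; median 1.01; 0 fell without Spg replicate 1, 1 without Spg replicate 3 or Spc replicate 1 or 2), and of the 4 transcription factors that the study names as candidates (Nrf1, Creb1, Rbpj and Nr0b1) Creb1 (-1.12) and Rbpj (-1.91) fell, Nrf1 (-0.95, edgeR adjusted p 0.0103) and Nr0b1 (-1.91, edgeR adjusted p 0.0131) missed the threshold. All 4 were lower with DESeq2 and with library totals, whereas none was called without Spg replicate 1 or Spc replicate 4 and 1 without Spg replicate 3 or Spc replicate 1.

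Long noncoding RNA genes rose far more often than they fell. Of 2686 tested, 1175 (43.7%) were higher and 229 (8.53%) lower, with a median log2 change of 1.91, against 26% and 28.1% of 15847 protein-coding genes with a median of -0.20. The number of long noncoding genes with at least 1 CPM was 867, 1078 and 797 in Spg and 1472, 1179, 1707 and 1432 in Spc, and that of protein-coding genes was 13448, 13448 and 12982 in Spg and 12014, 12192, 13627 and 11877 in Spc. The stages did not overlap for noncoding genes (two-sided exact permutation p 0.0571, the smallest possible, and 0.171 adjusted over 3 measures) and did for coding genes. With library totals 824 noncoding genes were higher and 279 lower, and without Spg replicate 1 the counts were 393 and 53. They were 702 and 72 without Spg replicate 3, and falls were 118 to 130 without Spc replicate 1, 2 or 4 or Spg replicate 2 and 349 without Spc replicate 3. Of the coding genes 1923 rose and 1607 fell without Spg replicate 1 and 2733 and 2358 without Spg replicate 3, and 2819 and 2926 fell without Spc replicate 1 or 2.

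The largest rises among noncoding genes with at least 10 CPM were 4930571K23Rik, Gm33936, 1700010K23Rik, Gm13001 and Gm9748. 4930571K23Rik (chromosome 7, 125368861 to 125371013) had 0, 0.0376 and 0 CPM in Spg and 28.3, 5.26, 60.6 and 27.3 CPM in Spc, with a mean at least 590-fold higher than 3 counts per Spg library, and Gm33936 (chromosome 15, 36341217 to 36367117) had 0, 0 and 0.0334 CPM and 19.7, 1.72, 5.08 and 17.8 CPM, with a mean at least 215-fold higher. The order of Spc libraries differed between them, with replicate 3 highest in the first and replicates 1 and 4 in the second. The largest falls were Gm14230, 4933427D06Rik, H19, B230354K17Rik and Spata5l1. H19, an imprinted noncoding RNA on chromosome 7 (142575529 to 142578143), had 35.9, 30.6 and 45.9 CPM in Spg and 0.496, 4.35, 6.11 and 0.534 CPM in Spc (log2 change -3.70, SE 0.87, edgeR adjusted p 0.0061). H19, 4933427D06Rik and B230354K17Rik missed the threshold without Spg replicate 1, Spg replicate 3 or Spc replicate 2 (adjusted p 0.0153 to 0.0203), 4933427D06Rik also without Spc replicate 4 (0.0105) and B230354K17Rik also without Spc replicate 1 (0.0109).

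Among TEs, the share of all counts did not separate the stages, while single families did. TEs took 2.28%, 3.52% and 3.28% of counts in Spg and 1.82%, 2.12%, 2.93% and 1.77% in Spc (two-sided exact permutation p 0.114). L1 elements, a LINE family, took 0.418% ± 0.105 in Spg (SD, n = 3) and 0.413% ± 0.113 in Spc (n = 4), and ERVK elements, retroviruses with long terminal repeats (LTR), 0.343% ± 0.0338 and 0.269% ± 0.0844. Neither share separated the stages, and Spc replicate 3 was the highest Spc library for both. ERV1 elements, another retrovirus family, took 0.114%, 0.14% and 0.0903% in Spg and 0.182%, 0.204%, 0.204% and 0.184% in Spc, and B2 elements, short elements that spread with the help of LINE proteins, took 0.544%, 0.716% and 0.709% in Spg and 0.17%, 0.273%, 0.366% and 0.166% in Spc. For ERV1 and B2 the stages did not overlap (two-sided exact permutation p 0.0571, the smallest possible, and 0.286 adjusted over 10 shares). The 95% Wilson interval of a share reached at most 0.00567 percentage points to either side and covers counting error only.

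By subfamily, 116 of 567 tested LTR subfamilies (20.5%) were called higher and 17 (3%) lower, beside 16.1% and 2.6% of all subfamilies. Of 100 ERV1 subfamilies 35 (35%) rose and 3 fell (median log2 change 1.18), of 265 ERVK subfamilies 49 (18.5%) rose and 12 fell (0.34), of 92 ERVL-MaLR subfamilies 22 (23.9%) rose and 0 fell (0.56) and of 124 L1 subfamilies 18 (14.5%) rose and 1 fell (0.27), beside a median of 0.27 over all subfamilies. Of 5 B2 subfamilies the 2 that fell, named after their values were seen, were B2_Mm1a, with 1350, 1322 and 1394 CPM in Spg and 245, 580, 578 and 252 CPM in Spc, and B2_Mm1t, with 795, 839 and 865 CPM and 253, 427, 440 and 258 CPM. With library totals, where the median over all subfamilies was -0.35, 24 ERV1 subfamilies were higher and 3 lower, 8 ERVK higher and 16 lower, 9 ERVL-MaLR higher and 4 L1 higher and 3 lower. Of LTR subfamilies 43 were then higher and 21 lower, beside 52 and 35 of all subfamilies. In the fit without Spg replicate 1, the rises were 21, 15, 11 and 7 in these families, and without Spg replicate 3 they were 21, 14, 11 and 8. Without Spc replicate 1 or 4, 23 ERVK, 14 ERVL-MaLR and 9 L1 subfamilies were higher. Without Spc replicate 3, 27 ERVK and 5 ERV1 subfamilies were lower, against 4 to 7 ERVK subfamilies without Spg replicate 1 or Spc replicate 1, 2 or 4 and 0 to 1 ERV1 subfamilies without any other library. All LTR rises were 49 without Spg replicate 1, 52 without Spg replicate 3 and 72 without Spc replicate 1 or 4, and LTR falls were 38 without Spc replicate 3 and 4 to 10 without any other library.

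**Figure D5:**
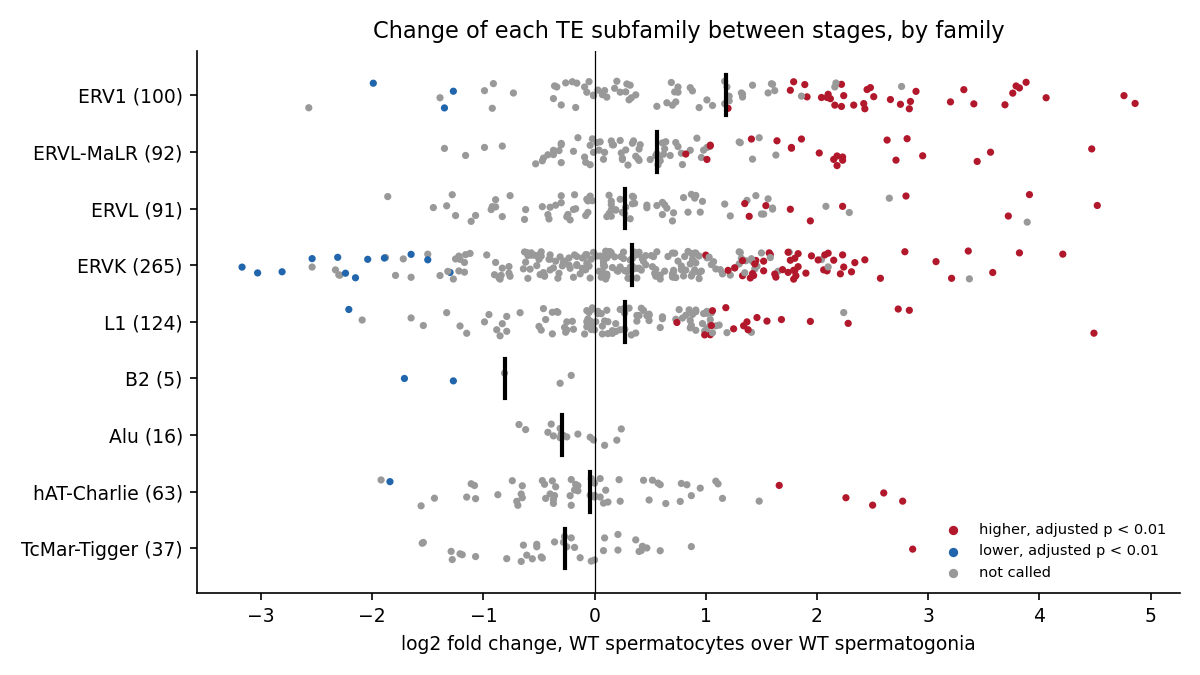
Log2 fold change of each tested TE subfamily between WT Spc and WT Spg in 9 families, with the number of subfamilies in brackets, the median as a black bar and colours for the calls at an adjusted p under 0.01. ERV1 subfamilies lie furthest to the right with a median of 1.18, and those of the Alu family lie near 0 with no call.

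The 5 largest rises among called subfamilies were MER77B, Lx2A1, LTR102_Mam, LTR48B and RLTR20A2B_MM, and most of them came from few copies. MER77B, an old LTR, had 0.239, 0.922 and 0.484 CPM in Spg and 13.5, 15, 7.31 and 14.5 CPM in Spc (log2 change 4.52, SE 0.58, edgeR adjusted p 0.00146). In the authors' TPM per copy, taken times the length of the copy, 1 copy outside genes (chromosome 19, 37254578 to 37254772) held 96.7% of the MER77B signal of Spc on average. RLTR20A2B_MM had 1.5, 9.15 and 1.18 CPM and 51.6, 70.2, 49.4 and 50.9 CPM (3.82, SE 0.76, edgeR adjusted p 0.00316), with 96.2% from 1 copy outside genes (chromosome 15, 59247260 to 59247821). LTR102_Mam (3.91, SE 0.87, edgeR adjusted p 0.00474) had 77.4% from 1 copy (chromosome 12, 98379907 to 98380354), also outside genes. These 3 subfamilies each had 1 leading copy. Lx2A1, an L1 subfamily, had 4.2, 18.8 and 3.34 CPM and 273, 167, 97.2 and 251 CPM (4.49, SE 0.75, edgeR adjusted p 0.00183), and its leading copy (chromosome 10, 85774255 to 85775536) held 25.1%. LTR102_Mam, LTR48B and RLTR20A2B_MM missed the threshold without Spg replicate 1 (adjusted p 0.0199, 0.0121 and 0.0124), and LTR102_Mam also without Spc replicate 2 (0.013) and with library totals (0.0117).

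The 5 largest falls were all internal or LTR sequences of ERVK elements: IAP1-MM_I-int, SRV_MM-int, IAP-d-int, ERVB4_1-I_MM-int and RLTR25B. IAP1-MM_I-int had 38.7, 25 and 34.5 CPM in Spg and 2.01, 3.04, 8.01 and 1.45 CPM in Spc (log2 change -3.17, SE 0.58, edgeR adjusted p 0.0024), and its leading copy of Spg held 24.3%. SRV_MM-int had 6.48, 7.49 and 8.69 CPM and 0.444, 0.789, 1.98 and 0.445 CPM (-3.03, SE 0.58, edgeR adjusted p 0.00268), with 92.9% of its Spg signal from 1 copy in an exon of the noncoding gene D430020J02Rik (chromosome 12, 116399867 to 116402064). RLTR25B had 120, 161 and 209 CPM and 19.7, 48.5, 48.7 and 20.8 CPM (-2.24, SE 0.40, edgeR adjusted p 0.00217), with 93.3% of its Spg signal from a copy of 97 bases outside genes (chromosome 2, 168311009 to 168311105), and ERVB4_1-I_MM-int had 63.9% from a copy that overlaps an exon of Gm14226 (chromosome 2, 155018389 to 155026679). Each of the 5 was highest among Spc in replicate 3, and no overlap of the stages was a condition of this choice. IAP1-MM_I-int, IAP-d-int and ERVB4_1-I_MM-int missed the threshold without Spg replicate 1 (adjusted p 0.0107, 0.0104 and 0.019), IAP-d-int also without Spg replicate 3 (0.0132), and both of the latter without Spc replicate 2 or 4 (0.0108 to 0.0128), as did ERVB4_1-I_MM-int without Spc replicate 1 (0.0124).

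A list of L1, ERVK and ERVL subfamilies and LTRs held young types beside older ones such as L1Md_F3. Of its 16 members 2 rose and 0 fell, with a median of 0.17, shares near those of all subfamilies (16.1% higher and 2.6% lower). L1Md_A had 128, 159 and 159 CPM in Spg and 153, 127, 291 and 127 CPM in Spc (log2 change 0.23, SE 0.32, edgeR adjusted p 0.546), and L1Md_T had 167, 201 and 195 CPM and 216, 168, 378 and 214 CPM (0.38, SE 0.29, edgeR adjusted p 0.279). Both were highest in Spc replicate 3, and the values were -0.33 and -0.20 with library totals. L1Md_A had -0.14 without Spc replicate 3. The 2 that rose were L1Md_F3 (0.99, SE 0.24, edgeR adjusted p 0.00693), with 45.6% of its Spc signal from 1 copy overlapping the pseudogene Gm5539 (chromosome 3, 59763928 to 59770781), and ETnERV2-int (1.57, SE 0.39, edgeR adjusted p 0.00748). Both calls were near the threshold: L1Md_F3 missed the threshold in each fit without 1 library (adjusted p 0.0103 to 0.0211), and ETnERV2-int in each but the fit without Spg replicate 2 (0.0108 to 0.0319), with log2 changes of 0.78 to 1.12 and 1.34 to 2.02 over these fits, and with library totals they had 0.262 and 0.0994. MMERVK10C-int had 559, 408 and 482 CPM in Spg and 70.8, 71.3, 349 and 67.6 CPM in Spc and was not called (-1.79, SE 0.61, edgeR adjusted p 0.0292), with Spc replicate 3 far above the other Spc libraries, while without that library it fell (-2.80, edgeR adjusted p 4.5e-04). In KO, L1Md_A rose by 2.78 between the stages, and the WT change minus the KO change was -2.38 (edgeR adjusted p 0.0038).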

How the data were processed

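RNA of sorted mouse testis cells was sequenced as stranded libraries of polyadenylated RNA. The authors trimmed reads with cutadapt 4.0, aligned them to GRCm38/mm10 with STAR 2.7.3a keeping up to 100 alignments per read, and counted genes (GENCODE) and TE subfamilies with TEtranscripts 2.2.3. The deposited count tables, 1 per stage, hold raw counts per library, and their columns of fold changes and p-values, from DESeq2 1.44.0 on KO against WT, were not used. The authors' TPM per TE copy, from TElocal 1.1.1, is scaled over TE copies alone and served only for shares of copies within a subfamily. The third Spg library of each genotype carries another replicate number in the tables than in its title, and the title was followed. The authors left out 1 Spg replicate per genotype for RNA quality.

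Both tables were joined on the identifier, so that entries listed in 1 table alone were described by counts and not tested. The 7 WT libraries were fitted with edgeR 4.0.16 (R 4.3.3) by the quasi-likelihood test, with the default low count filter and TMM scaling, and p-values were adjusted by Benjamini-Hochberg over all tested genes and TE subfamilies. Calls needed an adjusted p below 0.01. The difference between WT and KO was an interaction term over 14 libraries. The two-sided exact permutation test served single shares, and no design of 3 against 4 libraries can give less than 0.0571. Scripts were tested on simulated data. Library totals, in M counts, ran from 40.6 to 53.3, and intervals cover counting error only. Positions and gene types came from the GENCODE annotation given for GRCm38 (99.6% of genes matched), promoters from RefSeq (GRCm38.p6).

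Members and gene lists were chosen with earlier results of these data known. Beside list members, and overlapping with them, the genes named were the 10 largest called rises and falls of protein-coding genes with at least 100 CPM in the higher stage and no overlap, 5 of TE subfamilies with a mean count of at least 100, 5 of noncoding and 3 of X-linked genes with at least 10 CPM, and the 5 highest in each table of those listed there alone. One gene that this rule names is not reported here. Alternatives were DESeq2 1.42.0, 3 other scalings, other filters and thresholds, the join of either table, all 14 libraries, the alike Spc libraries as 1, the replicate block and each library left out.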

Additional observations from a re-analysis of the deposited data

Results flagged for a closer look

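Of 133 groups of 4 WT Spc libraries, 20 held a library far from the others by Dixon's test, of which chance flags about 1 in 20, and in 19 of them it was Spc replicate 3. That library had the highest share of counts from L1 (0.581%) and ERVK elements (0.395%), from the X chromosome (0.625%) and from the mitochondrial genome (2.3%), and the most genes at 1 CPM or more (16444). It was the highest for the genes Zbtb16 (11.4 CPM), Rarg (9.03 CPM), Smc3 (66.7 CPM), Tex15 (114 CPM), Usp26 (24.9 CPM), Gm14230 (2.15 CPM), Dmc1 (35.4 CPM), Sycp1 (731 CPM), Ldhb (35.9 CPM) and Sox9 (7.58 CPM), and for the TE subfamilies MMERVK10C-int (349 CPM), L1Md_A (291 CPM) and ERVB4_1-I_MM-int (13.7 CPM). It was the lowest for Mcm7 (229 CPM). Spc replicate 2 was the highest for RLTR20A2B_MM (70.2 CPM).

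The change of L1Md_A between the stages differed between the genotypes, with the WT change minus the KO change at -2.38 on the log2 scale (edgeR adjusted p 0.0038).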

How the results depend on the processing

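No call of a gene or TE subfamily turned its direction under another scaling, DESeq2, the replicate block or the loss of 1 library, but counts moved. Genes higher in Spc were 3825 with library totals and 2455 to 5963 without 1 library, and genes lower were 1782 to 6152. TE subfamilies higher were 246 with DESeq2, 52 with library totals, 88 with Spc replicates 1 and 4 summed, 250 at an adjusted p under 0.05 and 62 to 141 without 1 library. TE subfamilies lower were 53 with DESeq2, 11 with the alike libraries summed, 66 at an adjusted p under 0.05 and 6 to 49 without 1 library. Genes with a more positive change in WT than in KO were 1733 with library totals and 2152 to 4208 without 1 library, and those with a more negative one were 4840 with DESeq2, 4252 with library totals and 1449 to 4785 without 1 library. At 5 CPM in place of 1, the difference in genes detected, Spc minus Spg, was -1568 for protein-coding and 341 for long noncoding genes. The cause of these shifts was not tested.

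Of 117 named features, 103 were called and 44 kept the call in every fit without 1 library. Uncalled values near 0 changed sign. With library totals these were Mcm7 (-0.61, then called), Sycp1 (-0.43), Piwil2 (-0.07), Uhrf1 (-0.60), L1Md_A (-0.33) and L1Md_T (-0.20), and Mcm7 had -0.00 at a mean count of at least 50. Over the fits without 1 library Mcm7 ran from -0.01 to 0.14, Uhrf1 from -0.03 to 0.17, Utp14b from -0.34 to 0.05, Sycp1 from -0.15 to 0.26 and L1Md_A from -0.14 to 0.37.

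Whether the replicate numbers pair samples could not be told, since the third Spg library carries another number in the data than in its title. Deviations of WT libraries with the same title number correlated at -0.14, -0.07 and 0.33 over 16711 features. Those of other pairs ran from -0.49 to 0.42, and so few libraries cannot exclude a pairing. With the replicate block 3172 genes were higher and 1919 lower, and 57 TE subfamilies were higher and 6 lower.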
